A study of Mus musculus with 10 samples.

Results

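The 9 genes *Ly6a*, *Ly6c1*, *Clu*, *Anxa1*, *Anxa3*, *Anxa5*, *Anxa8*, *Msln* and *Il33* mark fetal-like and regenerating gut epithelium, and their open chromatin was followed in mouse colon organoids before and after Wnt3a withdrawal. They are 9 of the 21911 protein-coding genes of GENCODE M21. A site was taken as a region of open chromatin that overlaps one of these gene bodies or the 20 kb on either side, after peaks of all libraries that share at least 1 bp had been merged into regions. This gave 71 sites of the 85680 regions in the series. By position, 12 sites lay at the gene's own promoter (1 kb upstream to 100 bp downstream of an annotated start), 9 at the promoter of another gene, and 50 were distal.

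After damage, the adult gut epithelium transiently gives up its mature programme and switches on genes that are otherwise typical of the fetal gut. Yap1 with its DNA-binding partners of the Tead family and the AP-1 factors are known drivers of this switch. Open chromatin at a promoter or a distal element makes DNA reachable for such factors, but an open site is not by itself proof that the gene is expressed.

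Omni-ATAC-seq, in which a transposase cuts and tags open chromatin, was carried out on live cells sorted from colon organoids, and broad peaks were called in each of 10 libraries. WT organoids came from wildtype littermates and AHR KO organoids from Villin-Cre *Ahr* fl/fl mice, all on a C57BL/6 background. AHR is the aryl hydrocarbon receptor, a ligand-dependent transcription factor, and Villin-Cre drives its deletion in gut epithelium. Organoids were grown with Wnt3a (WENR, 2 WT and 3 AHR KO libraries) or for 4 days without it (d4 ENR, 3 WT and 2 AHR KO libraries). By the paper's methods, WENR medium also held nicotinamide and other small-molecule additives, a kinase inhibitor among them, that ENR medium lacked. Wnt3a withdrawal here stands for this whole change of medium. The effect of Wnt3a alone was not tested. Which sites stayed open in d4 ENR, and in which genotype, was the question asked.

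The libraries held between 41686181 and 49126792 fragments in WENR and between 30354729 and 36307860 in d4 ENR. Coverage lying in peaks was 63.0 to 68.6% in WENR, 14.1, 24.4 and 30.9% in the WT d4 ENR libraries and 33.8 and 44.2% in the AHR KO d4 ENR libraries. The shortest peak list, of WT d4 ENR replicate 1, had 33433 peaks. Of 9 colon epithelium markers, 8 had a promoter peak in all 10 libraries and *Krt20* in 1, while none of 5 blood cell markers had one in any. Of 3 endothelial markers, *Pecam1* and *Cdh5* had a promoter peak in none and *Kdr* in 5 of 10 libraries. Of 5 fibroblast and muscle markers, *Col1a1* and *Pdgfra* had one in all 10 libraries, *Acta2* in 5, *Des* in 3 and *Col3a1* in none. Over *Ahr* itself with 20 kb each side, peaks covered 3277 to 3846 bp in WT and 6155 to 8145 bp in AHR KO libraries in WENR, and 1981 to 2632 bp and 4471 to 4712 bp in d4 ENR. Open chromatin over the gene does not test for the deletion. In bulk libraries a change in the share of cells with an open site and a change in each cell cannot be told apart.

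The sequences of 5 sites are printed because the results below turn on them. Both *Il33* promoters are given as the 250 bases upstream of each RefSeq start, the first at chr19:29924863-29925112 and the inner one at chr19:29945540-29945789. Both distal sites that held a peak in both AHR KO and in no WT d4 ENR library are given as 300 bases at the centre of the stretch shared by both AHR KO peaks, in the *Anxa5* intron at chr3:36469759-36470058 and downstream of *Anxa1* at chr19:20370179-20370478. The strongest distal site of *Ly6a*, open in all 10 libraries, is given likewise at chr15:74992305-74992604. All are plus strand of GRCm38. Capitals mark matches on either strand to a TEAD motif (ACATTCC or GCATTCC), to the AP-1 motif TGACTCA, or to the AHR motif TNGCGTG.
Il33 first promoter: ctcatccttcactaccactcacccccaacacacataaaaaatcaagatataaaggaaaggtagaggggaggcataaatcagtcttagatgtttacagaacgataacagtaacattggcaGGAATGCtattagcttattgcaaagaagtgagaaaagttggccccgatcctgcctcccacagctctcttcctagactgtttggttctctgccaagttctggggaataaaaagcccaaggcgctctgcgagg
Il33 inner promoter: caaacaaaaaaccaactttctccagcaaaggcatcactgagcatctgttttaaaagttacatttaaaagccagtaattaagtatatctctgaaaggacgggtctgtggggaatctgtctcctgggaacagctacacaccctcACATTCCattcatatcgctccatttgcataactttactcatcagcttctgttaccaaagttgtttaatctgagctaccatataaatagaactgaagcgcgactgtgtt
Anxa5 distal site: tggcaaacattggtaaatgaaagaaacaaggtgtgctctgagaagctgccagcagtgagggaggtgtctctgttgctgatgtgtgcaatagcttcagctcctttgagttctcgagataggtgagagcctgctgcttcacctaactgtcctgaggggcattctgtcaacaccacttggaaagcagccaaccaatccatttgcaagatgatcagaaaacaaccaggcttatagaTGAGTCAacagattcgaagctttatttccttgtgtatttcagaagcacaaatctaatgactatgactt
Anxa1 distal site: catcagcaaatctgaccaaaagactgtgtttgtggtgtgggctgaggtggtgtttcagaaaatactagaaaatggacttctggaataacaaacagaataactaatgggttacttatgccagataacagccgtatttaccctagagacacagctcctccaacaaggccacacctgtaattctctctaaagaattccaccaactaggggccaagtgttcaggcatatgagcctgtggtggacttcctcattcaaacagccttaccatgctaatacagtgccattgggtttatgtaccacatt
Ly6a distal site: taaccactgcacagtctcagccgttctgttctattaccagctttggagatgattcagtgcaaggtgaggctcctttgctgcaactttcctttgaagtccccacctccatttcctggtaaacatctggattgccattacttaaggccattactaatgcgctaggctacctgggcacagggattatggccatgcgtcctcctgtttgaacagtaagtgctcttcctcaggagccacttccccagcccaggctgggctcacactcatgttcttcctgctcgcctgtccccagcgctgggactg
Each *Il33* promoter held 1 TEAD match, the *Anxa5* intron held 1 AP-1 match, and the windows of *Anxa1* and *Ly6a* held none. Promoter sequences were matched for 5 of the 9 genes (*Anxa1*, *Anxa5*, *Anxa8*, *Il33* and *Ly6c1*), with 7 starts, of which both *Il33* starts held a TEAD match and 0 an AP-1 or AHR match. Of all 32544 promoters of the same 250 bases, 6.0% held a TEAD match, 4.46% an AP-1 match and 4.13% an AHR match. In the central 300 bases of the 50 distal member sites, 5 held a TEAD match, 8 an AP-1 match and 0 an AHR match, that is 10.0%, 16.0% and 0.0%. Among all 66279 distal regions the shares were 11.0%, 17.5% and 2.84%. A match describes the letters only.

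Of the 71 sites, 44 held a peak in all 5 WENR libraries, and these form the set that could be kept or lost. After Wnt3a withdrawal 19 of the 44 were still called in all 5 d4 ENR libraries (54% of the 52254 regions called in all WENR libraries), 6 in none (8.95% of regions), 3 in both AHR KO and no WT library (2.76% of regions), 0 in all WT and no AHR KO library (0.0287% of regions), and 16 in some libraries of either genotype. Own promoters made up 7 of the 19 sites that stayed open in every library, from 10 in the set of 44. Distal sites made up 10 of the 19, from 30 in the set. Lists cut to the 33433 highest-ranked peaks of each library left none of the 3 sites in that class. The strength in WENR went with the outcome: the median pileup, scaled in each library to 1000000 fragments here and in all that follows, was 3.25 at the 19 sites kept in all d4 ENR libraries, 1.17 at the 19 called in 1 to 4 libraries and 0.482 at the 6 lost sites. Over all regions these medians were 2.81, 0.78 and 0.588. Scaling to fragments does not remove differences between libraries in the share of coverage in peaks. That share was lower in every d4 ENR than in every WENR library, and lower in WT than in AHR KO d4 ENR libraries. A peak that is not called did not pass the threshold of the caller, which does not show that the site was closed.

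Taking each genotype by itself, WT organoids kept 21 of 48 WENR sites in all 3 d4 ENR libraries (43.8%), and AHR KO organoids kept 30 of 46 in both (65.2%). Over all regions the shares were 50.9% and 72.9%. Own promoter sites were kept in 7 of 11 cases in WT (63.6%, against 77.4% of all promoter regions) and in 9 of 10 in AHR KO (90.0%, against 89% of all promoter regions). Distal sites were kept in 12 of 33 cases in WT (36.4%, against 39.6% of all distal regions) and in 18 of 32 in AHR KO (56.2%, against 65.9% of all distal regions). Per library, the WT d4 ENR libraries held 47.9, 47.9 and 68.8% of the WT WENR sites and the AHR KO libraries 65.2 and 82.6% of theirs. The genotypes overlapped, with means of 54.9 ± 12.1% (SD, n = 3) and 73.9 ± 12.3% (SD, n = 2), a difference of 19.0 points (exact permutation test over libraries, 2-sided, p = 0.4, smallest possible p = 0.2). For own promoter sites they did not overlap, at 72.7, 63.6 and 63.6% in WT and 90.0 and 90.0% in AHR KO (exact permutation test, p = 0.2). For all promoter regions the difference was 6.27 points against 23.4 points for member promoters, which are only 11 and 10 sites. The WT set alone holds an inner *Anxa3* start (5:96840394-96841060), called in no AHR KO WENR and no d4 ENR library. It therefore counted as lost in WT only and widened the difference. With lists of equal length WT kept 18 of 27 member sites (66.7%) and AHR KO 17 of 26 (65.4%), so the excess of kept sites in AHR KO was not seen there. The shares over all regions are not given for these lists, so this speaks for the member sites only.

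**Figure D1:**
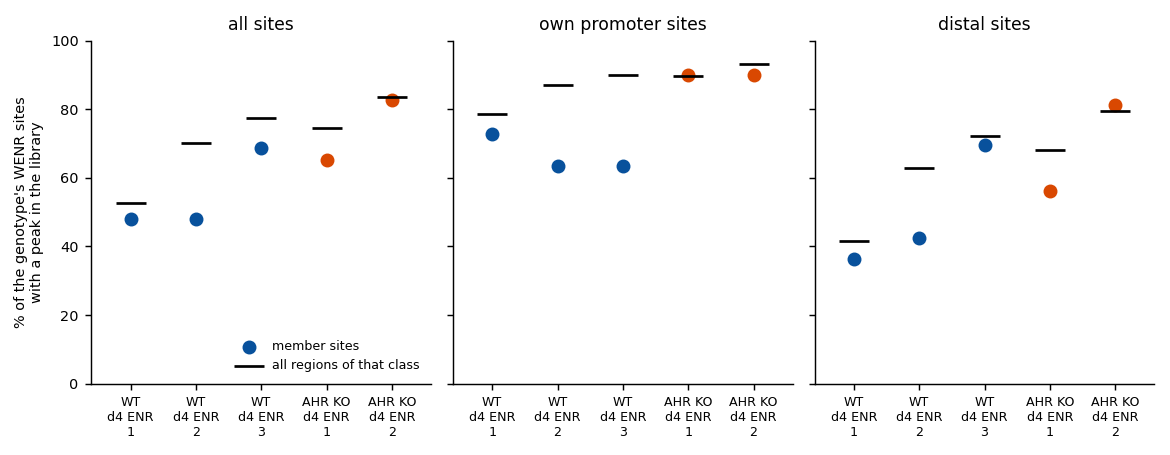
Percent of the WENR sites of a genotype (y axis) that held a peak in each d4 ENR library (x axis, with replicate number), for all sites, own promoter sites and distal sites. Dots are the sites of the 9 genes and black bars all regions of that class. Own promoter sites sit at 63.6 to 72.7% of 11 sites in WT and at 90.0% of 10 sites in AHR KO libraries.

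The first start site of each gene was then read at the single base, a measure chosen after the data had been seen. It lay under a peak in all 5 WENR libraries for 8 of the 9 genes, the exception being *Anxa1*, whose promoter peaks ended just short of the outermost annotated start. In d4 ENR, 4 of the 8 starts, those of *Clu*, *Anxa3*, *Anxa5* and *Anxa8*, stayed under a peak in all 5 libraries (85% of the 11715 genes with a start under a peak in all WENR libraries). The starts of *Ly6a* and *Msln* were under a peak in both AHR KO and in no WT library (1.14% of genes), and 0 of 8 showed the opposite (0.0171% of genes). The start of *Il33* was under a peak in no d4 ENR library (1.95% of genes), and that of *Ly6c1* in 1 library of each genotype. With lists of equal length *Ly6a* stayed in its class, while *Msln* kept a peak over its start in 1 AHR KO and no WT library, *Anxa8* in 1 library of each genotype and *Ly6c1* in none. *Il33* then had no peak over its start in WENR and left the set. With *Anxa8* no longer kept, 3 of 7 starts, not 4 of 8, stayed under a peak in all d4 ENR libraries (9532 of 10601 genes). *Ly6a* was then the 1 start of 7 under a peak in both AHR KO and in no WT library (76 of 10601 genes).

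Among the surface proteins, *Ly6a* encodes Sca-1, a GPI-anchored protein of the Ly6 family and a common marker of regenerating epithelium. The gene occupies 15:74994877-74998031 (minus strand). Within 20 kb of the gene, peaks covered 4542 and 4999 bp for WT and 5711, 4579 and 4965 bp for AHR KO libraries in WENR. After withdrawal they covered 2542, 2487 and 3910 bp for WT and 5303 and 4809 bp for AHR KO. Every AHR KO library lay above every WT library in d4 ENR, and AHR KO organoids still had 99.4% of their mean WENR bases against 62.5% in WT. That AHR KO share ranked at percentile 86.0 of all genes, and the WT share at 58.9. Most of the d4 ENR difference lay at the promoter site (15:74997029-75000816), where the called peaks covered 1516, 1175 and 2908 bp for WT and 3670 and 3325 bp for AHR KO d4 ENR libraries. There the pileup was 3.67 and 4.12 in WT and 3.75, 3.97 and 4.15 in AHR KO libraries in WENR. It was 0.74, 0.86 and 0.87 in WT and 1.44 and 1.75 in AHR KO in d4 ENR. Pileup thus was lower in d4 ENR in both genotypes even where the width stayed the same. Relative to other regions, in the limma fits described below, the log2 change in pileup was -0.7 ± 0.15 in WT (limma, adjusted p = 0.00341). In AHR KO it was -0.43 ± 0.15 (limma, adjusted p = 0.0561). The strongest distal site, 5567 bp downstream of the start (15:74991900-74993029), was called in all 10 libraries with a fold enrichment between 3.69 and 5.87, and 1002 to 1123 bp of it were called in each. Its pileup was 8.31 and 9.71 in WT and 8.01, 9.91 and 9.40 in AHR KO libraries in WENR, and 0.97, 1.08 and 1.21 in WT and 2.50 and 2.97 in AHR KO in d4 ENR. Pileup was thus lower in d4 ENR over nearly the same width, and lower in all WT than in both AHR KO libraries there. The share of all coverage lying in peaks had the same order, being lower in d4 ENR and lowest in WT d4 ENR.

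**Figure D2:**
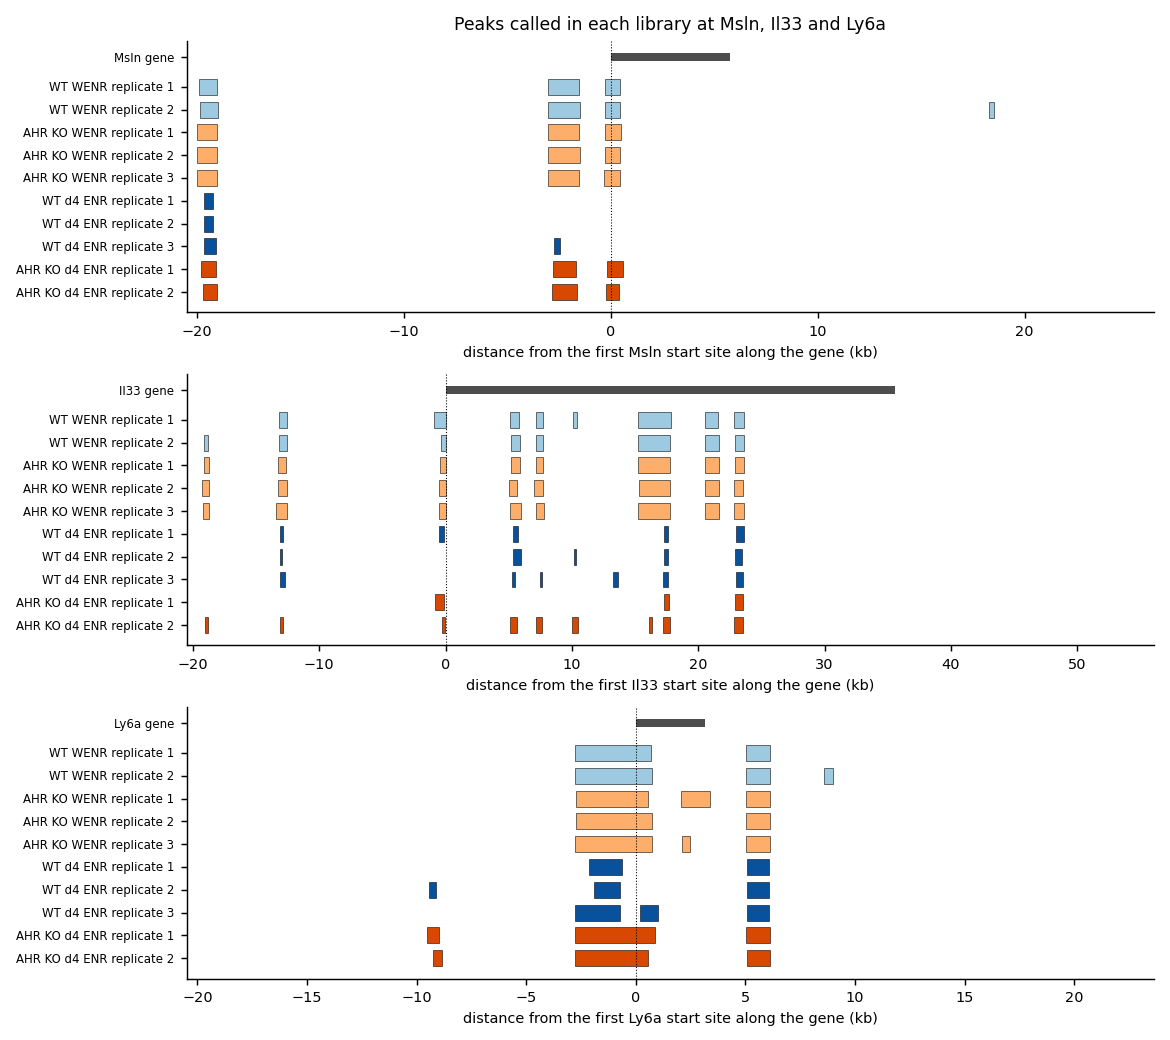
Peaks called in each library (rows) at *Msln*, *Il33* and *Ly6a*, with the distance from the first start site in kb on the x axis, positive in the direction of transcription. Bars are peaks and the dark bar is the gene body. At *Msln* no WT d4 ENR library has a peak over the start, and at *Ly6a* the WT d4 ENR peaks leave the start uncovered.

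*Ly6c1*, a neighbour of *Ly6a* that encodes another GPI-anchored Ly6 protein, occupies 15:75044018-75048830 (minus strand). Peaks covered 6129 and 6827 bp for WT and 5557, 6538 and 6738 bp for AHR KO libraries in WENR. After withdrawal the WT libraries had 1170, 1478 and 765 bp and the AHR KO libraries 3573 and 3066 bp, without overlap. The share left was 17.6% in WT, the lowest of the 9 genes, and 52.9% in AHR KO. Its promoter site (15:75046383-75051338) held a peak in all 10 libraries, but over less width in d4 ENR. The peaks there covered 4057 to 4955 bp in WENR, and 505 to 1478 bp in WT and 2377 to 2996 bp in AHR KO d4 ENR libraries. Its strongest distal site, 14208 bp upstream (15:75062183-75063893), was called in all WENR, 1 WT and both AHR KO d4 ENR libraries. With lists of equal length the genotype difference in d4 ENR turned to -137.3 bp.

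*Msln* encodes mesothelin, a GPI-anchored protein of the mesothelium. The gene occupies 17:25748613-25754378 (minus strand). Peaks covered 3056 and 3374 bp for WT and 3213, 3291 and 3289 bp for AHR KO libraries in WENR, and 438, 473 and 869 bp for WT and 2621 and 2479 bp for AHR KO in d4 ENR. The genotypes overlapped in WENR and were far apart in d4 ENR, with 18.5% of the WENR bases left in WT and 78.1% in AHR KO, the widest gap of the 9 genes (16.2% and 33.5% with lists of equal length). These bases include the *Narfl* promoter, 19499 bp upstream, which was called in all 10 libraries. It was the only peak of the window in WT d4 ENR replicates 1 and 2. Replicate 3 had besides it only the 281 bp at the distal site named below. In WT this share ranked at percentile 7.22 of all genes and in AHR KO at 45.9. The promoter site (17:25753767-25754712) had a fold enrichment of 2.50 and 2.23 in WT and 2.68, 2.51 and 2.40 in AHR KO libraries in WENR. After withdrawal it was called in no WT library and with 3.47 and 3.26 in AHR KO. Its pileup was nevertheless lower in AHR KO d4 ENR (0.87 in both) than in AHR KO WENR (2.69, 4.09 and 4.93). The strongest distal site, 2268 bp upstream (17:25755866-25757426), was called in 1 WT and both AHR KO d4 ENR libraries, over 281 bp in WT and over 1094 and 1172 bp in AHR KO.

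**Figure D3:**
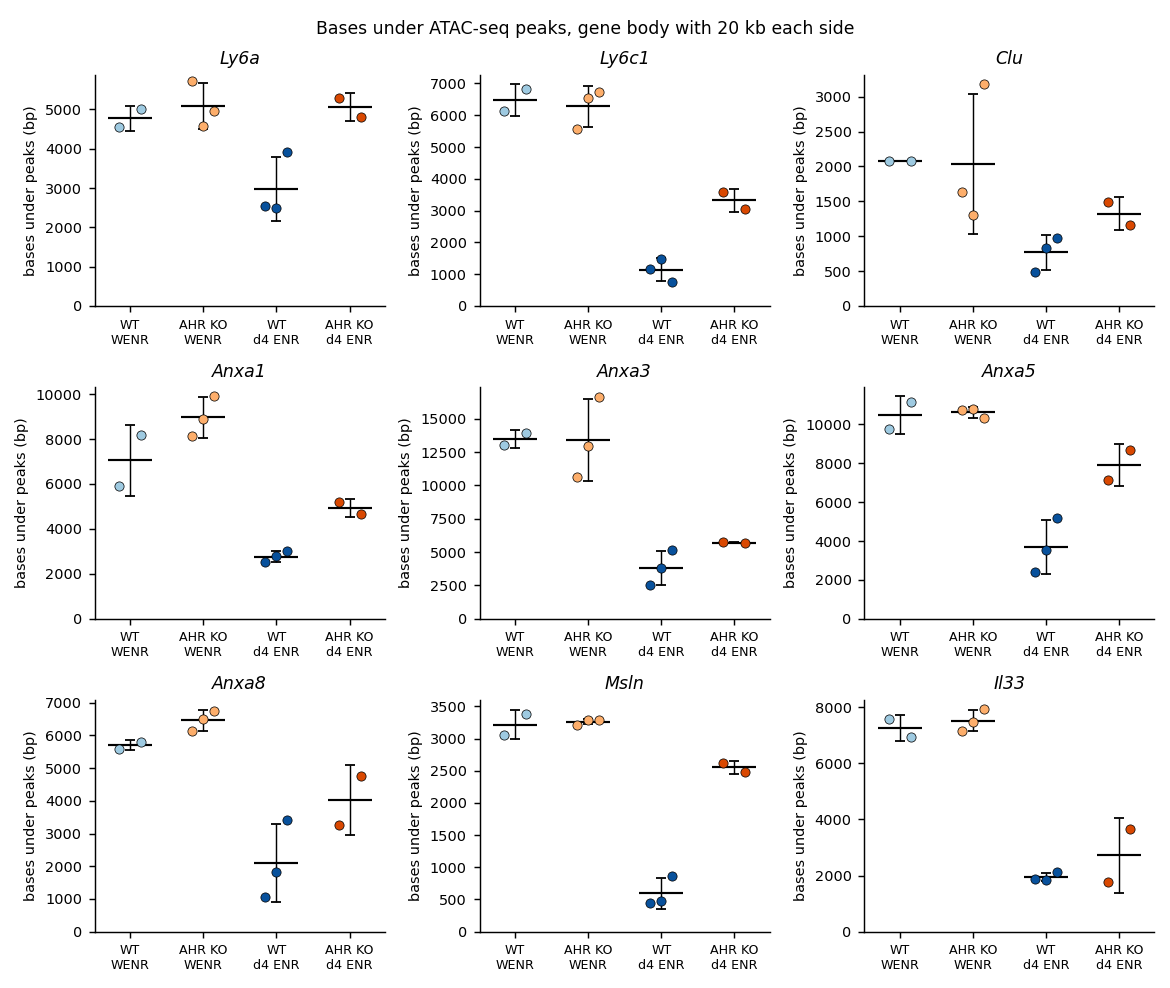
Bases under peaks in bp (y axis) over each gene body with 20 kb each side, by group (x axis). Points are libraries, lines are means and error bars are SD, with n = 2 or 3. At *Msln* WT d4 ENR libraries lie between 438 and 869 bp and AHR KO d4 ENR libraries between 2479 and 2621 bp. In WT d4 ENR most or all of these *Msln* bases lie at the *Narfl* promoter.

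Of the secreted proteins, *Clu* encodes clusterin, an extracellular chaperone that marks revival stem cells after gut injury. The gene occupies 14:65968483-65981547 (plus strand). Peaks covered 2079 and 2082 bp for WT and 1633, 1307 and 3184 bp for AHR KO libraries in WENR, and 487, 835 and 979 bp for WT and 1492 and 1155 bp for AHR KO in d4 ENR. The share left was 36.9% in WT and 64.8% in AHR KO. With 1 library left out it ran from 31.8 to 43.6% in WT and from 55.0 to 90.0% in AHR KO. The promoter (14:65968129-65969194) was among the strongest member sites, called in all 10 libraries with a mean fold enrichment of 6.24. Its lowest value was 3.79 in WT d4 ENR replicate 1 and its pileup in d4 ENR was 0.68, 1.05 and 1.23 in WT and 1.78 and 2.23 in AHR KO. The strongest distal site, 13828 bp past the start (14:65981722-65982900), was called in AHR KO d4 ENR replicate 2 and in no other d4 ENR library.

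*Il33* encodes a nuclear alarmin cytokine of the IL-1 family, and occupies 19:29925114-29960718 (plus strand). Peaks covered 7581 and 6934 bp for WT and 7164, 7474 and 7915 bp for AHR KO libraries in WENR, and 1874, 1854 and 2126 bp for WT and 1772 and 3657 bp for AHR KO in d4 ENR. The genotypes overlapped in d4 ENR (exact permutation test over 3 and 2 libraries, p = 0.8), with 26.9% left in WT and 36.1% in AHR KO. The AHR KO share rested on 1 library, being 23.6% without AHR KO d4 ENR replicate 2 and 48.6% without replicate 1. The first promoter (19:29924214-29925174), a weak site with a pileup of 0.49 to 0.58 in WENR, was called in 1 WT and both AHR KO d4 ENR libraries. The inner promoter (19:29945644-29946772) was called in all WENR libraries, with a pileup of 1.38 to 2.33, and in no d4 ENR library of either genotype. Its strongest distal site, 12961 bp upstream (19:29911706-29912600), was kept in all 3 WT and in 1 of 2 AHR KO d4 ENR libraries.

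The annexins are calcium-dependent proteins that bind membrane phospholipids. *Anxa1*, known to promote epithelial repair, occupies 19:20373428-20390944 (minus strand). Peaks covered 5921 and 8171 bp for WT and 8115, 8884 and 9926 bp for AHR KO libraries in WENR, and 2507, 2797 and 2997 bp for WT and 5206 and 4662 bp for AHR KO in d4 ENR, with 39.3% and 55.0% left. Its promoter (19:20389203-20390932) and the distal site 2904 bp upstream (19:20393628-20394069) were called in all 10 libraries. The site downstream of the gene from which 300 bases are printed above (19:20370122-20374246) had a fold enrichment of 2.30 to 2.73 in WENR, held no peak in any WT d4 ENR library and had 2.58 and 3.06 in AHR KO d4 ENR. The printed bases lie near the edge of this site, where the peaks of both AHR KO d4 ENR libraries overlap. The peaks there were weak, with a pileup of 0.36 and 0.40 and a highest −log10 q of 2.0 and 5.6 in the AHR KO d4 ENR libraries.

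*Anxa5* encodes the phosphatidylserine-binding annexin used to label dying cells, and occupies 3:36448923-36475894 (minus strand). Peaks covered 9776 and 11162 bp for WT and 10734, 10806 and 10319 bp for AHR KO libraries in WENR, and 2385, 3533 and 5172 bp for WT and 7146 and 8686 bp for AHR KO in d4 ENR. The share left was 35.3% in WT and 74.5% in AHR KO, and the d4 ENR difference of 4219.3 bp was the largest in bases among the 9 genes. Its promoter (3:36475084-36476559) and the distal site in an intron with the highest fold enrichment (3:36449180-36450099, mean 6.14) were called in all 10 libraries. The intron site printed above (3:36469261-36470197) was called in WENR with a fold enrichment of 1.86 to 2.35, in no WT d4 ENR library, and in both AHR KO d4 ENR libraries with 2.25. There, too, the pileup was lower in AHR KO d4 ENR (0.56 in both) than in AHR KO WENR (1.24, 1.56 and 1.66).

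*Anxa3* (5:96793339-96845966, plus strand) had 19 sites, the most of the 9 genes, and the largest loss in bases. Peaks covered 13019 and 13928 bp for WT and 10604, 12955 and 16637 bp for AHR KO libraries in WENR, and 2570, 3820 and 5123 bp for WT and 5725 and 5690 bp for AHR KO in d4 ENR, with 28.5% and 42.6% left. The first promoter (5:96792904-96796122) was called in all 10 libraries, over 1214, 1763 and 2234 bp for WT and 2989 and 2941 bp for AHR KO in d4 ENR. The 2 sites at inner starts (5:96840394-96841060 and 5:96842062-96842406) were called in both WT WENR libraries and in AHR KO WENR replicate 1, respectively, and in no d4 ENR library. *Anxa3* also had 4 of the 6 sites lost in all d4 ENR libraries, and its strongest distal site, 6884 bp upstream (5:96786002-96786909), was called in 1 d4 ENR library of each genotype. At *Anxa8* (14:34085981-34100571, plus strand) peaks covered 5595 and 5807 bp for WT and 6127, 6502 and 6762 bp for AHR KO libraries in WENR. After withdrawal they covered 1058, 1831 and 3413 bp for WT and 3259 and 4774 bp for AHR KO, so that the genotypes overlapped, with 36.8% and 62.1% left. Its promoter (14:34085509-34088320) was called in all 10 libraries and its strongest distal site, 5509 bp upstream (14:34080030-34080914), in all but WT d4 ENR replicate 1.

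**Figure D4:**
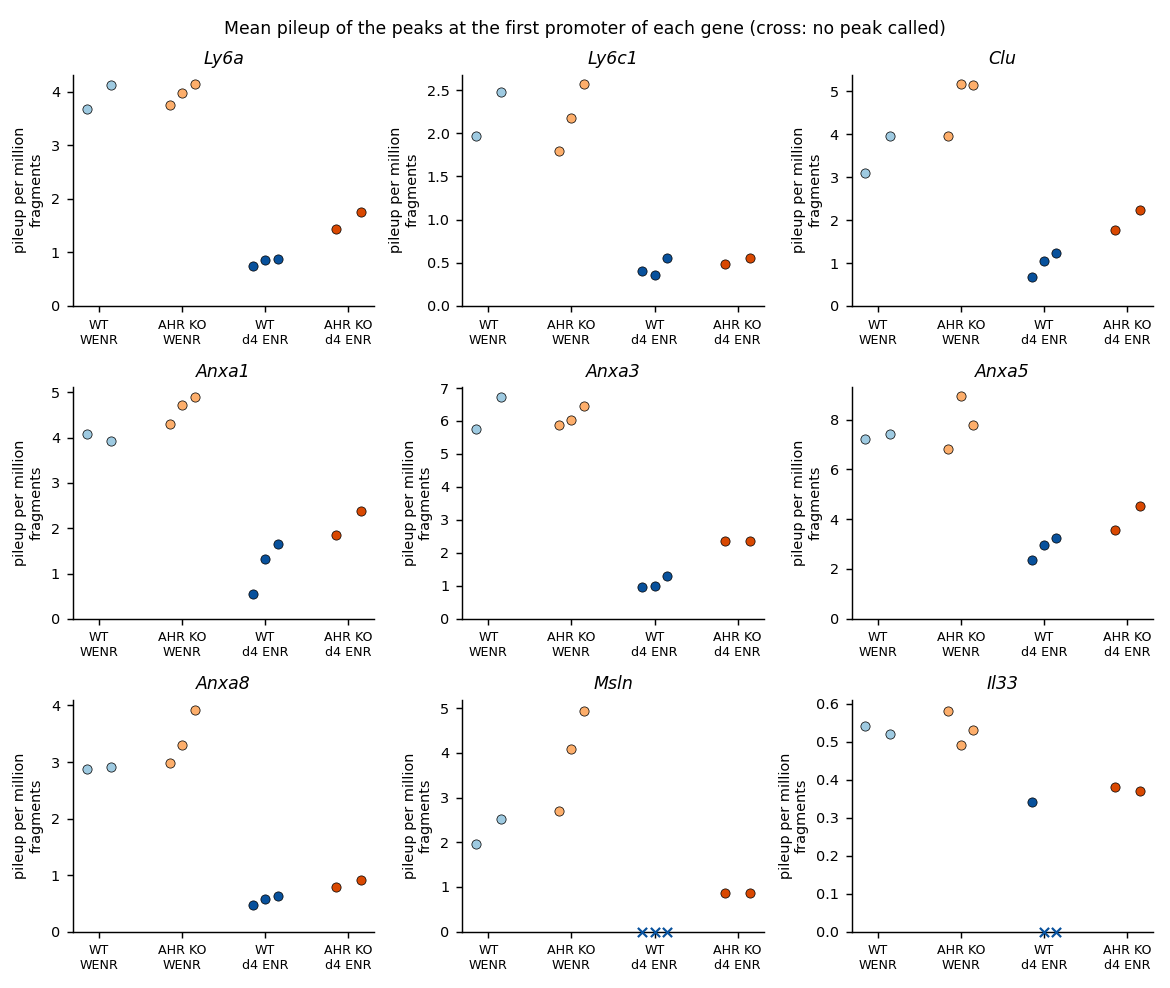
Mean pileup, scaled to 1000000 fragments (y axis), of the peaks at the first promoter of each gene, by group (x axis). Points are libraries and crosses mark libraries with no peak. The scaling does not remove differences between libraries in the share of coverage in peaks. In *Msln* no WT d4 ENR library has a peak, and in *Ly6a* WT d4 ENR libraries lie at 0.74 to 0.87 and AHR KO d4 ENR libraries at 1.44 and 1.75.

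Across the 9 genes, covered bases were lower after Wnt3a withdrawal. In WT all 9 genes were covered less in all 3 d4 ENR than in both WENR libraries (84.5% of 18452 genes with a peak), and in AHR KO 7 of 9, all but *Ly6a* and *Clu* (62.3% of genes). Over both genotypes 7 of 9 were covered less in all 5 d4 ENR than in all 5 WENR libraries (54.7% of genes), with the same exceptions. The exact permutation test with libraries exchanged within genotypes gave 7 of 9 genes lower at an adjusted p of 0.0335 (59.3% of genes), from -1668.0 bp for *Msln* to -8663.5 bp for *Anxa3*. *Clu*, at -1015.7 bp, had an adjusted p of 0.0585 and *Ly6a*, at -909.9 bp, of 0.148 by the same exact test, with Benjamini-Hochberg adjustment over all genes. With any 1 library left out none of the 9 passed, although all 9 differences stayed below 0. With lists of equal length 5 of the 9 had an adjusted p that rounds to 0.05 and lies just above it, and the others were higher. Without 1 library the smallest possible p rises to 0.0333 or 0.05.

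By median, the 9 genes kept a smaller part of their peak-covered bases than all genes did, in both genotypes. The median share left was 35.3% in WT and 62.1% in AHR KO, against 58.0% and 80.2% over the 17790 genes with WENR peaks in both genotypes. In WT only *Ly6a* lay above the median of all genes, and so it was in AHR KO. With lists of equal length the medians were 46.8% and 71.0% for the 9 genes and 71.0% and 91.2% for 16084 genes, but the order within the 9 changed. *Anxa1* (81.3%) was then the one above the median in WT, where *Ly6a* had 57.0%, and *Ly6a* (101%), *Clu* (95.5%) and *Anxa1* (95.4%) lay above it in AHR KO. *Ly6c1* had 9.08% and 7.39% then, in WT and AHR KO. The median difference between AHR KO and WT was 28.0 points over the 9 genes and 20.1 points over all genes.

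**Figure D5:**
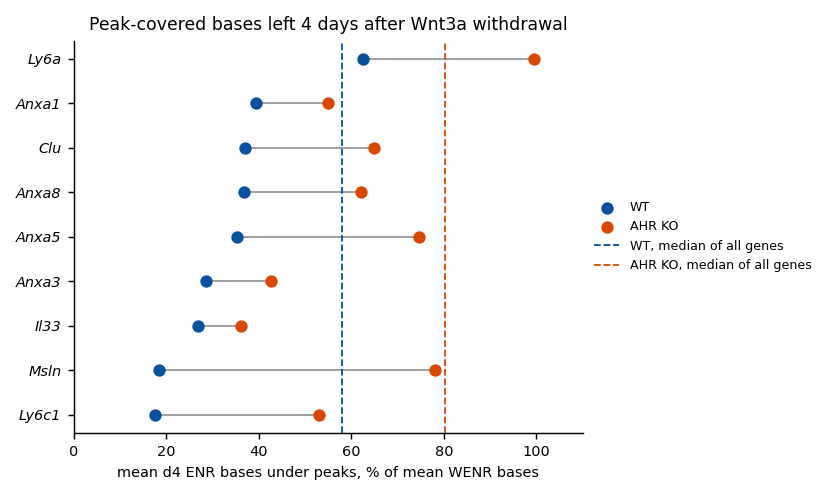
Mean bases under peaks in d4 ENR as a percent of the mean in WENR (x axis) for each gene (y axis) in WT and AHR KO. Dashed lines are medians of all genes, 58.0% in WT and 80.2% in AHR KO, and with all peaks *Ly6a* alone lies to the right of them in both genotypes.

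In d4 ENR, 7 of 9 genes were more covered in each AHR KO library than in any WT library, the exceptions being *Anxa8* and *Il33* (59.5% of genes). With 2 against 3 libraries the smallest p of the exact permutation test is 0.2, which these 7 genes reached. Their differences ran from 556.5 bp for *Clu* to 4219.3 bp for *Anxa5*. In WENR only *Anxa8* was covered more in all AHR KO than in both WT libraries (12.5% of genes) and 0 of 9 less (10.5% of genes). Tested within media over all 10 libraries, 0 of 9 genes passed the adjusted threshold (0% of genes), with *Anxa1* and *Anxa8* at an exact p of 0.04 before adjustment and 2586 of 18452 genes under 0.05. Nor did any of the 9, or any of the 18452 genes, pass for the difference of the genotype effect between media. The lowest exact p among the 9 was 0.08 for *Ly6c1*, with 2116 of all genes under 0.05 before adjustment. The share of all coverage lying in peaks also separated the genotypes in d4 ENR, as given above. With lists of equal length the genotypes were apart for 7 genes, now with *Anxa8* and without *Ly6c1*.

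Strength could be fitted only at the 19 member sites called in all 10 libraries, of 28205 such regions, with limma on quantile-normalised log2 values, so that each difference is relative to the other regions. By the fold enrichment of the authors, WT organoids had 2 member sites higher (18.6% of regions) and 2 lower (16.2%) in d4 ENR, and AHR KO organoids 1 higher (5.25%) and 0 lower (5.93%). The *Anxa5* promoter rose by 0.47 ± 0.08 (SE) on the log2 scale in WT (limma, adjusted p = 0.00206), and an *Anxa3* site within the gene (5:96799291-96800856) by 0.39 ± 0.08 in WT and 0.40 ± 0.08 in AHR KO (limma, adjusted p = 0.00507 and 0.0143). An *Anxa5* site upstream (3:36481660-36482243) fell by 0.37 ± 0.12 (limma, adjusted p = 0.0302) and the *Narfl* promoter within the *Msln* window (17:25773363-25774392) by 0.24 ± 0.08 in WT (limma, adjusted p = 0.0309). Between genotypes in d4 ENR 0 of 19 sites were higher (3.16% of regions) and 0 lower (2.63%), with 3 at an unadjusted p under 0.05. In WENR and for the interaction 0 of 19 passed, and 0 of all 28205 regions did. Before adjustment 1 member site each was under 0.05, and 593 and 4152 of all regions.

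Fold enrichment is a mean over the called width, and that width shrank in d4 ENR. A second quantity, the pileup times the bases called (peak signal), was therefore fitted in the same way, a choice made after the data had been seen. On this scale 0 member sites were higher (16.5% of regions) and 12 of 19 lower (14.5%) in d4 ENR in WT, and 0 higher (11.1%) and 8 lower (10.6%) in AHR KO. The median log2 difference over the 19 sites was -0.96 in WT and -0.47 in AHR KO, against 0.04 and 0.02 over all regions. At the *Anxa3* site named before, the direction turned with the measure, to -0.51 ± 0.16 in WT, and at the *Narfl* promoter it turned upward, to 0.27. The largest falls were at an *Il33* intron site (19:29940318-29942925), by 3.09 ± 0.21 in WT and 2.30 ± 0.21 in AHR KO (limma, adjusted p = 0.000111 and 0.000238).

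Between genotypes in d4 ENR, peak signal was higher in AHR KO at 3 of 19 member sites (1.63% of regions) and lower at 0 (0.564%). These were the *Anxa3* promoter at 0.88 ± 0.14 (limma, adjusted p = 0.0185), the *Il33* intron site at 0.95 ± 0.21 (limma, adjusted p = 0.0489) and the *Ly6a* promoter at 0.90 ± 0.20 (limma, adjusted p = 0.05, which before rounding lies just below the threshold). At the *Ly6a* promoter the peak signal was 1.13, 1.01 and 2.53 in WT and 5.28 and 5.81 in AHR KO d4 ENR libraries, in kb times pileup, against 12.36 to 14.45 in WENR. At the *Anxa3* promoter it was 1.17, 1.77 and 2.91 in WT and 7.03 and 6.97 in AHR KO, against 17.63 to 20.31 in WENR. On this scale both promoters were higher in AHR KO than in WT and below their WENR values. They did not pass by pileup alone (*Anxa3* 0.39 ± 0.13, limma adjusted p = 0.111, and *Ly6a* 0.22 ± 0.15, limma adjusted p = 0.412) or by fold enrichment (0.03 ± 0.15, limma adjusted p = 0.928, and -0.20 ± 0.13, limma adjusted p = 0.356), where the *Ly6a* direction turned. The *Il33* intron site did not pass by pileup either (0.71 ± 0.30, limma adjusted p = 0.182). By pileup 1 member site was higher in AHR KO (1.78% of regions) and 0 lower (1.26%). It was the strongest distal site of *Ly6a*, at 0.59 ± 0.12 (limma, adjusted p = 0.0259), which fell by 1.54 ± 0.12 with withdrawal in WT and by 0.89 ± 0.12 in AHR KO (limma, adjusted p = 6.04e-06 and 0.000174). By peak signal this site had 0.37 ± 0.16 between genotypes (limma, adjusted p = 0.251). No interaction passed at a member site by peak signal, while of all 28205 regions 11 were higher and 0 lower.

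Most other genes of these families, taken from lists, also lost covered bases. Of 6 other annexin genes with a peak, 5 were more covered in each AHR KO library than in any WT library of d4 ENR, of 8 other genes of the *Ly6* cluster 5, and of 10 other genes raised in fetal-like or injured gut epithelium 7. These counts stand beside 59.5% of all genes. Lower in d4 ENR at an adjusted p of at most 0.05 by the exact permutation test were 5, 5 and 9 of them, beside 59.3% of all genes. The share left was 46.0, 38.0 and 41.9% in WT and 71.9, 69.9 and 69.1% in AHR KO by median, against 58.0% and 80.2% over all genes. The largest differences between AHR KO and WT in d4 ENR were 4261.8 bp for *Anxa2*, an annexin of membrane and actin dynamics, and 4201.2 bp for *S100a6*, a calcium-binding protein. The smallest were 97.5 bp for *Ptgs2*, the inducible cyclooxygenase, and 165.8 bp for *Ly6h*. Of genes over 100 kb away, *Gm5751*, *Chil6* and *Cep44* had covered bases most like those of *Ly6a* over the 10 libraries (Pearson r = 0.988, 0.983 and 0.982). Among the 9 genes *Msln* (r = 0.887) and *Anxa5* (r = 0.859) were closest, all over 10 libraries in 4 groups that share the same differences in depth and coverage in peaks.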

How the data were processed

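Omni-ATAC-seq peaks of 10 libraries were analysed, grouped by genotype and medium as the labels give them. The authors aligned reads to GRCm38 within nf-core/atacseq and called broad peaks per library with MACS 2.2.7.1, without a control (q of 0.1 for broad and 0.05 for narrow regions). The deposited pileup is a coverage signal in fragments, the deposited fold enrichment is a ratio to local background computed within each library, and the deposited −log10 p and q values are those of MACS. Read counts were not used here, so no count test was run. Fragment totals came from the file headers.

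The members and gene lists were chosen with earlier results of these data known. All 9 members are named, with their promoter sites, the distal site of highest mean fold enrichment, and each site held by all d4 ENR libraries of one genotype and none of the other. Of the other lists the 2 largest and 2 smallest differences are named. Exact permutation tests were 2-sided, with 10 arrangements between genotypes in d4 ENR (smallest p 0.2) and 100 within strata (smallest p 0.02), and Benjamini-Hochberg adjustment over 18452 genes. The share of bases left is the mean of covered bases in d4 ENR as a percent of that in WENR. Regions were fitted with limma 3.58.1 in R 4.3.3, at an adjusted p of at most 0.05. Other steps used Python 3.11.15, numpy 2.4.6, pandas 2.3.3 and matplotlib 3.10.9. Both tests were tested on simulated data. Alternatives were lists of 33433 peaks, a −log10 q of at least 5, 50% of a region covered, windows of 5 kb or the gene body alone, other scalings, a replicate block and each library left out. Replicates are separate libraries, and where they do not come from separate mice, p-values measure technical spread. Promoter sequences are from RefSeq (GRCm38.p6).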

Additional observations from a re-analysis of the deposited data

How the results depend on the processing

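The direction of the medium effect on covered bases was kept for all 9 genes under every alternative, but the 7 genes past the threshold became 4 with gene bodies alone, 0 with lists of equal length (5 at an adjusted p that rounds to 0.05 and lies just above it), and 0 with the replicate block and in each leave-one-out fit (lowest and highest 0), where the smallest possible p also rises. The number of genes more covered in each AHR KO library than in any WT library of d4 ENR was 7 to 9 with a library left out. Leaving 1 library out, WT kept 21 to 23 sites, AHR KO 30 to 38, the sites in AHR KO only numbered 3 to 7 (7 without WT d4 ENR replicate 3, 5 without AHR KO d4 ENR replicate 1) and those in WT only 0 to 2 (2 without AHR KO d4 ENR replicate 2). Other settings moved these counts: with lists of equal length AHR KO kept 17 of 26 sites and AHR KO-only sites were 0 of 24, with a −log10 q of at least 5 WT kept 8 of 36, with 50% of a region covered WT kept 6 and AHR KO 18 of 41, and with gene bodies alone AHR KO kept 18 of 24 (75.0%). With promoters assigned by midpoint WT kept 4 of 6 promoter sites (66.7%), a smaller set with a like share. For all these settings the shares over all regions are not given. The labels do not say whether same-numbered libraries share an organoid line. Deviations of same-numbered libraries from their group means had correlations from -0.13 to 0.014, which showed no pairing. They cannot exclude it, because in a group of 2 libraries the 2 deviations mirror each other. With the replicate block, which for bases and sites leaves out the third replicates, AHR KO-only sites were 7 and member sites changed by medium in AHR KO 0.

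Single-gene genotype differences in d4 ENR turned with lists of equal length for *Ly6c1* (-137.3 bp) and *Il33* (-33.5 bp), and for *Il33* without AHR KO d4 ENR replicate 2 (-179.3 bp, with 1705.7 bp as the highest of these fits). Within media they turned for *Ly6c1* with lists of equal length (-293.3 bp) and a −log10 q of at least 5 (-45.3 bp), and for *Clu* without AHR KO WENR replicate 3 (-27.0 bp, highest 442.2 bp). The difference between media turned for *Il33* with lists of equal length (-350.5 bp) and without AHR KO d4 ENR replicate 2 (-439.5 bp, highest 1445.5 bp), for *Ly6a* with gene bodies alone (-16.0 bp), and for *Anxa1* with gene bodies alone (-616.7 bp) and in 3 leave-one-out fits (-887.0 to -34.0 bp, with -192.0 between, highest over all such fits 1363.0). None of these had passed the threshold. Member sites changed in fold enrichment by medium in WT numbered 2 without normalization (all higher) and 9 with median centring (8 higher, 1 lower). They numbered 13 by pileup (1 higher, 12 lower), 12 by peak signal (all lower), 2 with 50% of a region covered (all higher) and 1 to 6 in leave-one-out. In AHR KO they numbered 3 with centring (all higher), 8 by pileup and 8 by peak signal (all lower), and 0 to 6 in leave-one-out. Between genotypes in d4 ENR 1 was lower in AHR KO with centring, 1 lower with 50% covered and 0 to 1 lower in leave-one-out. By pileup 1 was higher in AHR KO and by peak signal 3, so the direction differed between settings. By pileup and peak signal the *Anxa3* site turned to -0.77 and -0.51 in WT and -0.42 and -0.36 in AHR KO, and the *Narfl* promoter to 0.54 and 0.27. The share of bases left moved by more than 1 SD between libraries in 45 of the values for the 9 genes and by less in 207. The cause was not tested.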

Other observations

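Of the 71 sites, 6 held a peak in d4 ENR only. The matching share over all regions is not given, so the count describes these sites and no trait of the genes. The one called most often lay 9186 bp upstream of *Ly6a* (15:75006879-75007555), at the promoter of *Gm28068*, with a fold enrichment of 3.38 in WT d4 ENR replicate 2 and of 3.17 and 3.18 in the AHR KO d4 ENR libraries. Its pileup, scaled to 1000000 fragments, was 0.36, 0.44 and 0.41. A site 10857 bp upstream of *Anxa8* (14:34074997-34075251) was called in WT d4 ENR replicate 3 with a fold enrichment of 3.84 and in AHR KO d4 ENR replicate 2 with 3.44. The other 4, a pair at *Anxa3* and 1 each at *Clu* and *Il33*, were called in 1 WT d4 ENR library each, over 188 to 332 bp and with a fold enrichment of 2.84 to 3.49. All 6 had a pileup of at most 0.49. No cause was tested.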
